A study of Caenorhabditis elegans with 4 samples.

Results

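SMA-9::GFP peaks in the arms of autosomes II, III, IV and V numbered 204 of the 960 peaks in the combined list of the series. A peak was taken as an arm peak when its midpoint lay outside the central region of its chromosome, so tips are included. In WormBase WS220 coordinates the arms lie below 4879000 and above 12020000 on II, below 3722000 and above 10340000 on III, below 3896000 and above 12970000 on IV, and below 5897000 and above 16550000 on V. The 118 left-arm and 86 right-arm peaks were chosen by position alone, and the centres of the same chromosomes held 344 peaks. The data are peak lists from chromatin immunoprecipitation followed by sequencing (ChIP-seq) with anti-GFP antibodies in hermaphrodite L2 larvae of Caenorhabditis elegans strain OP130. These worms have the unc119(ed3) mutation and the transgene wgIs130, a bombarded sma-9 fusion with TY1, EGFP and FLAG that also brings unc119; they were grown at 20 degrees Celsius and fixed with 2% formaldehyde. Of the 4 libraries, 2 are ChIP and 2 are input; 3 lists were used, 1 for each ChIP replicate and the combined list, and no list of the inputs was analysed here. The transgene and the mutation are common to all libraries, and no untagged strain was compared.

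SMA-9, the worm relative of Drosophila Schnurri, has zinc fingers and acts in the nucleus with the Sma/Mab pathway, a BMP-like cascade in which the ligand DBL-1 signals through receptors and Smad proteins to set body size and male tail pattern. C. elegans autosomes are divided into a central region, rich in conserved and highly expressed genes, and outer arms, which recombine more and carry more repeats and more methylated histone H3 lysine 9. A peak here is an interval that the authors' caller listed, with a q-value, the false-discovery value given to that interval. No annotation or genome sequence of build WS220 was used here, so peaks are named by position, without a gene or a sequence.

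Arm DNA carried fewer SMA-9 peaks per megabase than central DNA on these chromosomes. The combined list held 6.06 peaks per Mb in arms (95% interval 5.26 to 6.95, exact Poisson) and 10.3 per Mb in centres (9.22 to 11.4). Arms thus held 37.2% of the peaks on 50.1% of the span, and their density was 0.590 times that of the centres (95% interval 0.493 to 0.703; two-sided exact binomial test, p = 1.40e-09, adjusted over the 3 lists 4.21e-09). Replicate 1 gave 3.92 peaks per Mb in arms and 6.87 in centres, a ratio of 0.571 (0.457 to 0.710, exact test, adjusted p = 3.29e-07). Replicate 2, with 26 arm and 46 centre peaks, gave 0.772 and 1.37 per Mb, a ratio of 0.562 (0.334 to 0.929, exact test, adjusted p = 0.0183). The direction was the same in both replicate lists, although replicate 2 listed far fewer peaks. The exact test takes peaks, not libraries, as its units, and the 3 lists share the same 2 ChIP libraries. Its p-values, here and below, therefore concern peak counts along the span and do not measure variation between libraries. The test also treats peaks as independent, and because neighbours can sit close by, it understates the p-values. With each run of peaks under 5 kb apart counted once, the arm share was 39.3% (exact test, p = 3.47e-06). Spans run to the farthest listed peak of any list, which bounds the outer arms from below and so the arm densities from above.

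**Figure D1:**
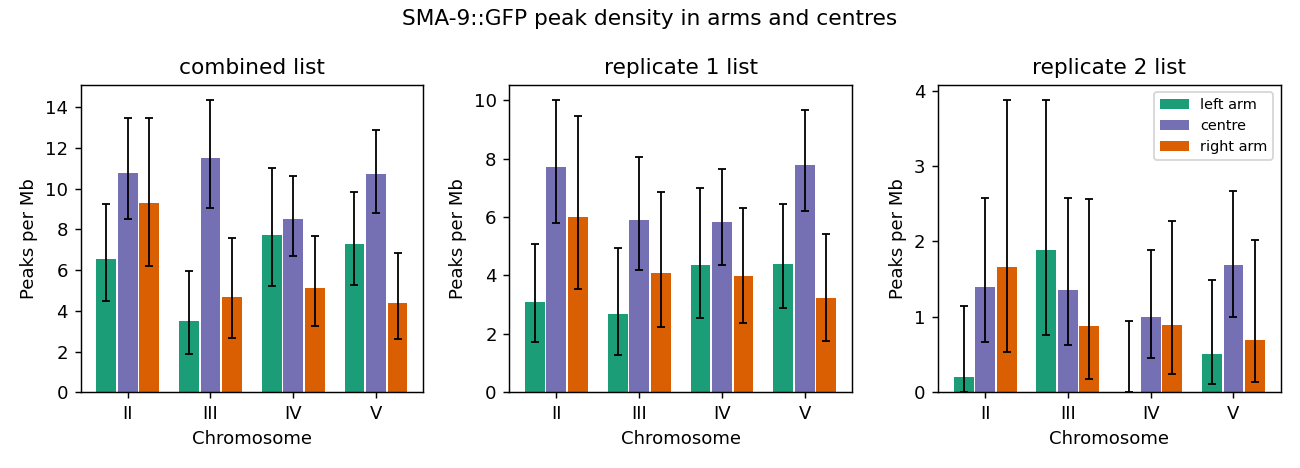
Peaks per Mb (y axis) in the left arm, centre and right arm of chromosomes II to V (x axis) for the combined, replicate 1 and replicate 2 lists, whose y axes differ. Bars are counts divided by span and error bars are exact 95% Poisson intervals, which cover counting error only. In the combined list each arm lies below the centre of its own chromosome, from 3.49 per Mb in the left arm of III to 9.31 in the right arm of II.

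The ratio of arm to centre density was below 1 on each of the 4 chromosomes in the combined list. On III, arms held 29 peaks and the centre 76, or 4.06 and 11.5 per Mb, a ratio of 0.353 (0.222 to 0.548; exact binomial test, adjusted over 4 chromosomes p = 2.56e-06). On V, 62 arm and 114 centre peaks gave 6.05 and 10.7 per Mb, a ratio of 0.566 (0.408 to 0.777, exact test, adjusted p = 5.49e-04). These 2 chromosomes passed the threshold of 0.05. On II, where the arms held 60 peaks, the ratio was 0.706 (0.495 to 1.002, exact test, adjusted p = 0.0650), and on IV, with 53 arm peaks, 0.744 (0.514 to 1.07, exact test, adjusted p = 0.114). Replicate 1 alone gave ratios of 0.543 on II, 0.570 on III, 0.714 on IV and 0.501 on V, so III, lowest in the combined list, was not lowest in that of replicate 1. In that list II passed the threshold too (exact test, adjusted p = 0.0107), as did III (0.0423) and V (0.00111), and IV did not (0.135). In replicate 2 the ratio on III was 1.03 (0.376 to 2.86), with 10 arm peaks, 4 of which belong to a single run in the left arm. The other chromosomes had 4 to 6 replicate 2 arm peaks each and ratios of 0.347 to 0.543. Differences between chromosomes were not tested.

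No difference in density between left and right arms was detectable. Left arms held 6.42 peaks per Mb (5.31 to 7.68) and right arms 5.63 (4.50 to 6.95), a ratio of 1.14 (0.856 to 1.52; exact binomial test, two-sided, p = 0.485 after adjustment over the 3 lists). In the replicate lists the ratio was below 1, at 0.883 (0.618 to 1.26) in replicate 1 and 0.609 (0.253 to 1.42) in replicate 2. The intervals leave room for a difference of either sign. By chromosome the left arm was denser on V (7.29 against 4.37 per Mb) and IV (7.70 against 5.11) and the right arm on II (9.31 against 6.56) and III (4.67 against 3.49), but in the combined list no chromosome passed the exact test (adjusted p = 0.246 to 0.462). The right arm of II was the densest of the 8 arms and the left arm of III the sparsest, with 13 peaks.

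Density was lower from the first megabase inside the arm limits. In the last 3 bins of 1 Mb before the limits, going outward, the centres held 9.75, 9.50 and 8.75 peaks per Mb, summed over the 8 limits. The first 3 bins inside the arms held 5.63 (4.10 to 7.53), 7.75 (5.94 to 9.94) and 6.13 (4.53 to 8.10). The intervals of neighbouring bins overlap on either side of the limit. Farther out, the arms differed among themselves. When each arm was divided at its middle, left arms had 77 peaks in the inner part and 41 in the outer part, whereas right arms had 36 and 50. On III the left arm had 11 inner and 2 outer peaks and the right arm 3 and 13. The 11 include a run of 4 peaks at 1921092 to 1926814, close to the dividing point 1.86 Mb from the arm limit. These counts are given without a test.

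**Figure D2:**
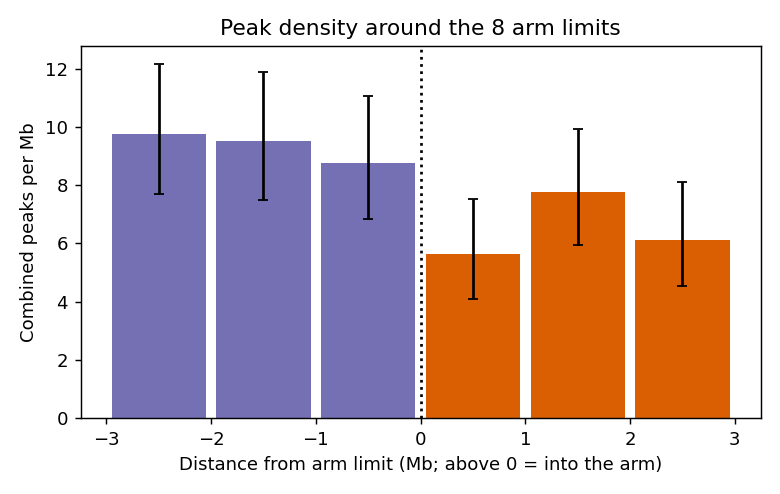
Combined peaks per Mb (y axis) in bins of 1 Mb by distance from the arm limit in Mb (x axis), with positive distances inside the arm, summed over the 8 limits (8 Mb per bin). Error bars are exact 95% Poisson intervals; the centre bins range from 8.75 to 9.75 per Mb and the arm bins from 5.63 to 7.75.

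Long stretches of arm held no combined peak. The widest between neighbouring peaks lay in the right arm of III, where 1.59 Mb separated the peak ending at 10717780 from the one starting at 12305948. Within it replicate 1 listed 2 peaks and replicate 2 listed 1, III 10819934 to 10820023 (90 bp, q = 8.70e-04). The left arm of III had a gap of 1.03 Mb, from 313253 to 1345491, in which replicate 2 listed 2 peaks and replicate 1 none. Those were III 931225 to 931825 (601 bp, q = 0.00461) and III 1299607 to 1300479 (873 bp, q = 0.00291), against a median width of 69.5 bp for the 6 replicate 2 arm peaks that overlap no combined peak. Between neighbouring combined peaks within each of the other 6 arms, the widest gaps measured 346 to 799 kb, and neither replicate listed a peak in those gaps. Stretches between an arm limit and the first peak are not among them. In the right arm of II that stretch measured 606 kb and held the replicate 1 peak II 12187043 to 12187083 (41 bp, q = 0.00560). Long stretches were not confined to arms. In the centre of IV the last combined peak before the right limit lay 1013 kb from it. Gaps in arms and centres were not compared.

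The strongest arm peaks lay on III, and 4 of them formed a single run. The 3 peaks of lowest q in each of the 8 arms are described below, 24 in all, with combined q-values of 2.88e-37 to 4.98e-05 and widths of 61 to 1731 bp. Of these 24, 22 overlapped a replicate 1 peak by at least 1 bp and 13 a replicate 2 peak, and the same 13 were in both. Among all 960 combined peaks 6.67% were in both replicate lists, but the 24 were picked for low q, so their share is a description. In the left arm of III, 1924988 to 1925663 (676 bp) led with a combined q of 2.88e-37, 3.24e-21 in replicate 1 and 4.61e-15 in replicate 2, where it ranked 1 of 89. Its neighbour at 1921092 to 1921727 had q-values of 2.70e-27, 1.67e-16 and 9.79e-12 in the same order. The next, at 1926415 to 1926814, had 1.27e-14, 6.22e-07 and 9.84e-07. Only these and the remaining member of the run, 1923451 to 1923896 (q = 9.61e-12), were listed in both replicates among the 13 left-arm peaks of III. In the right arm of III the leading peak, 12612324 to 12612845, had 6.73e-16 in the combined list, 2.19e-10 in replicate 1 and 1.00e-06 in replicate 2. The peak at 12583410 to 12583790, 28.5 kb from it, had 1.11e-06, 1.12e-04 and 0.00799. The last of the trio, 13061031 to 13061415, had a combined q of 3.42e-06 and 7.66e-04 in replicate 1, and replicate 2 did not list it. Within III, replicate 2 thus listed 5 of the 6 named arm peaks.

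On II the leading peaks of the right and left arms had similar combined q-values. In the right arm, 14040045 to 14040727 (683 bp) had q-values of 1.93e-13 in the combined list, 2.93e-09 in replicate 1 and 1.73e-04 in replicate 2. The next ones, 13678548 to 13678977 (combined q = 1.23e-07) and 13291258 to 13291838 (1.38e-06), had replicate 2 values of 0.00489 and 0.00803. All 3 right-arm peaks were thus in both lists. In the left arm the leading peak, 2973889 to 2974238 (350 bp), had 2.71e-13 in the combined list, 2.55e-08 in replicate 1 and 4.74e-05 in replicate 2. The following ones, 3796441 to 3797085 (combined q = 3.69e-05) and 4089346 to 4089575 (4.98e-05), were listed in replicate 1 only. The leading peak was the only one of the 32 left-arm peaks of II in replicate 2, where 7.81% of all combined peaks were listed.

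On IV the right arm held the strong peaks. The peak at 14594178 to 14594605 (428 bp) had 7.92e-14 in the combined list and 6.82e-12 in replicate 1, where it ranked 6 of 517, and was not listed in replicate 2. The peak at 14032803 to 14034533, the widest arm peak at 1731 bp, had 1.84e-13, 7.48e-08 in replicate 1 and 6.40e-06 in replicate 2. The right-arm peak 16180777 to 16181247 had a combined q of 1.93e-08 and was in replicate 1 only. In the left arm of IV the lowest combined q-values were 1.45e-05 at 2219494 to 2219816, 1.76e-05 at 2630395 to 2630521 and 3.74e-05 at 2048784 to 2049263. All 3 were in replicate 1, with q-values of 8.58e-05, 2.72e-04 and 0.00355. Replicate 2 listed no peak in the left arm of IV, so 0 of its 30 combined peaks were in that list (exact 95% upper bound 11.6%, counting error only). Among all combined peaks 7.81% overlapped a replicate 2 peak, a share within that bound.

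On V the best arm peak had a higher q than the best arm peaks of II, III and IV. In the right arm, 19529150 to 19529551 had 6.98e-11 in the combined list, 1.80e-07 in replicate 1 and 0.00423 in replicate 2. Another, 6.11 kb away at 19522673 to 19523043, had 8.63e-08, 1.91e-04 and 0.00374. In the left arm, 3391081 to 3391394 had 7.75e-10, 4.99e-05 and 0.00481. These 3 were in both replicates, but replicate 2 placed them at ranks 49 to 57 of 89. The left-arm peak 5768183 to 5768589 (8.84e-07) was in replicate 1 only. The third peaks of these arms, V 17152835 to 17152945 (111 bp, q = 1.21e-05) and V 4710861 to 4710921 (61 bp, q = 2.87e-05), were in neither replicate list. They were also the arm peaks of lowest q in neither list, and the next 3 of that kind were on V as well.

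Most arm peaks were narrow and had modest q-values. Their width ran from 2 to 1731 bp with a median of 141.5 bp (interquartile range 51 to 262), and 50 of 204 (24.5%) were under 50 bp, against 26.1% of all combined peaks. Centre peaks had a median of 152 bp (50 to 270). The median q was 9.60e-04 in arms (interquartile range 1.96e-04 to 0.00366) and 8.73e-04 in centres (9.22e-05 to 0.00314). The quartile ranges of arms and centres overlap almost entirely, and no test was made because peaks of a library are not replicates. Among the arms, median width ran from 86 bp in the right arm of V to 209 bp in the right arm of III. Median q was lowest in the left arm of III (1.44e-04) and highest in the left arm of II (0.00255). Wider peaks tended to have lower q, with a Spearman rho between width and −log10 q of 0.452 over the 204 arm peaks and 0.485 over centre peaks, a description over peaks of the same libraries. The widest arm peaks after that on IV were a pair only 407 bp apart in the left arm of the same chromosome, 2828044 to 2829014 (971 bp, q = 2.26e-04, in replicate 1) and 2826729 to 2827636 (908 bp, q = 9.25e-04, in neither list), named after their values were seen.

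**Figure D3:**
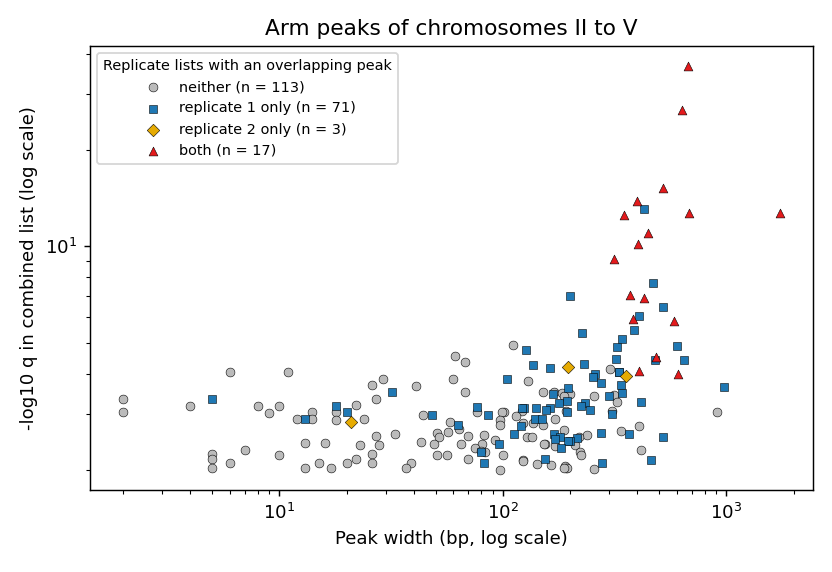
Width in bp (x axis, log scale) against −log10 of the combined q-value (y axis, log scale) for the 204 arm peaks, each point a peak. Markers show which replicate lists overlap it; the 17 peaks in both lie at the upper right, with widths of 314 to 1731 bp, and the 113 in neither have a median width of 70 bp.

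Arm peaks were found in the replicate lists in proportions near those of the whole combined list. Of the 204, 88 overlapped a replicate 1 peak (43.1%, exact 95% interval 36.2 to 50.2) and 20 a replicate 2 peak (9.80%, 6.09 to 14.7), against 39.8% and 7.81% of all combined peaks. Both lists held 17 (8.33%, 4.93 to 13.01), against 6.67% of all, and neither held 113 (55.4%, 48.3 to 62.3), against 59.1%. In centres, 167 of 344 (48.5%, 43.2 to 53.97) were in replicate 1, 39 (11.3%) in replicate 2, 35 (10.2%, 7.19 to 13.9) in both and 173 (50.3%) in neither. The arm and centre intervals overlap for each of these shares, and shares this near those of the whole list are no result about arms. The combined list and the replicate lists come from the same libraries, so an overlap is not an independent observation of a site.

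Listing followed q in arms as in centres. Because the lists come from the same libraries, a low combined q and a replicate listing go together by construction, so the counts are a description. All 10 arm peaks with a combined q of at most 1e-10 were in replicate 1 and 9 were in replicate 2, the exception being IV 14594178 to 14594605. Of the 12 between that and 1e-05, 12 were in replicate 1 and 5 in replicate 2. Of the 81 between 1e-05 and 0.001, 42 were in replicate 1 and 5 in replicate 2, and of the 101 above 0.001 the counts were 24 and 1. In the centres the same 4 classes held 11, 44, 131 and 158 peaks, with 11, 41, 73 and 42 in replicate 1 and 10, 16, 10 and 3 in replicate 2. Arms thus had about as many peaks in the strongest class as centres, 10 and 11, and fewer in the next, 12 and 44. However, 4 of those 10 arm peaks form the single run on III, so the similar counts rest in part on that run. These classes were set after the lists had been seen.

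The 17 arm peaks in both lists included 6 in left arms and 11 in right arms. Replicate 2 overlapped 7 of 118 left-arm peaks (5.93%, 2.42 to 11.8) and 13 of 86 right-arm peaks (15.1%, 8.30 to 24.5), against 7.81% of all combined peaks. The right-arm interval begins just above 7.81% and holds the 11.3% of centre peaks. Replicate 1 overlapped 38.1% (29.4 to 47.5) of left-arm and 50.0% (39.02 to 60.98) of right-arm peaks, against 39.8% of all. The left-arm and right-arm intervals overlap, which is not a comparison of the shares. The difference between left and right arms in listing was not tested. Of the 6 left-arm peaks in both lists, 4 are the run on III. Of the right-arm peaks in both lists, II held 5, and III, IV and V held 2 each. Every one of the 17 was matched by 1 peak in each replicate, and each had a lower q in the combined list than in either replicate. Over these 17 peaks, −log10 q in the replicates had a Spearman rho of 0.532 and a Pearson r of 0.915. Without the run on III, 13 arm peaks remained, with 0.423 and 0.758. Over the 35 centre peaks in both lists the values were 0.529 and 0.755. Only peaks listed in both replicates enter, so these coefficients describe those peaks and do not measure agreement between the replicates. The 3 arm peaks in replicate 2 but not replicate 1 were V 5790848 to 5791042 (q = 6.44e-05), IV 16169681 to 16170036 (q = 1.18e-04) and IV 14108132 to 14108152 (q = 0.00148), named after their values were seen.

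**Figure D4:**
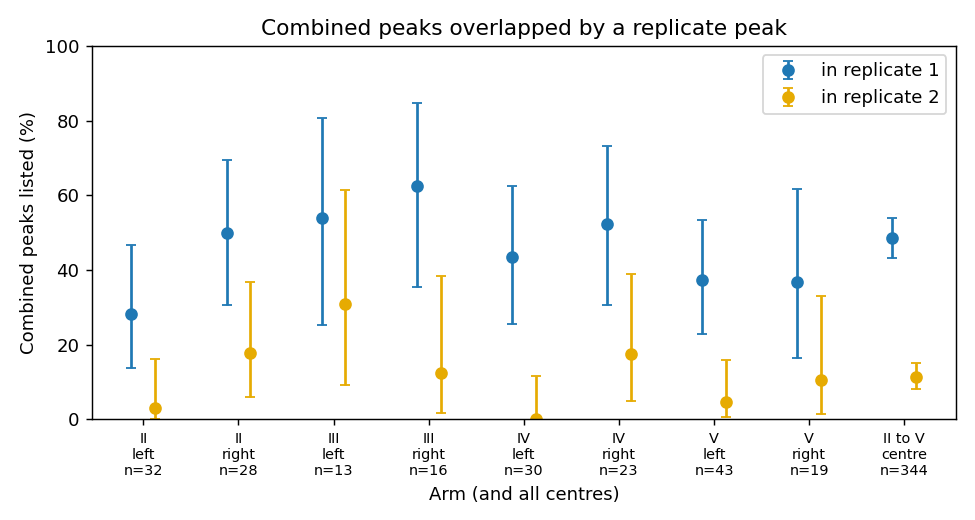
Share of combined peaks (y axis, %) that overlap a replicate 1 or replicate 2 peak by at least 1 bp, for each of the 8 arms and for the 4 centres together (x axis, with the number of peaks). Points are shares and bars exact 95% intervals; replicate 1 shares run from 28.1% in the left arm of II to 62.5% in the right arm of III, and replicate 2 shares from 0% in the left arm of IV to 30.8% in the left arm of III.

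Arm peaks lay farther apart than centre peaks. The median distance to the nearest combined peak was 35.9 kb in arms (interquartile range 6.95 to 102) and 16.1 kb in centres (2.38 to 51.8). A neighbour less than 5 kb away was present for 45 arm peaks (22.1%, exact 95% interval 16.6 to 28.4), 113 centre peaks (32.8%, 27.9 to 38.1) and 31.5% of all combined peaks. At the other end, 52 arm peaks (25.5%) had no other peak within 100 kb, against 40 centre peaks (11.6%). The density of peaks differs in the same direction, and its part in the spacing was not tested; the spacing itself is given without a test. Peaks less than 5 kb apart formed 21 runs in the arms: 19 pairs, 1 run of 3 and 1 run of 4. The centres held 47 runs, 12 of them with 3 or more peaks.

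The run of 4 was that on III, 1921092 to 1926814, and all its peaks were in both replicates. The run of 3 was II 13636865 to 13640399, with 1 peak in replicate 1 and none in replicate 2. A pair in the right arm of II, 14337872 to 14339183, had both of its peaks in both replicates, although the combined q-values were only 9.91e-05 and 3.12e-05. A pair at V 3388405 to 3391394 had 1 of its peaks in both replicate lists, the named left-arm peak. Of the 21 arm runs, 18 had no peak in replicate 2, the run of 3 included. In the centres 30 of 47 runs had none, and among all combined peaks only 7.81% overlapped a replicate 2 peak. The difference between arm and centre runs was not tested.

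**Figure D5:**
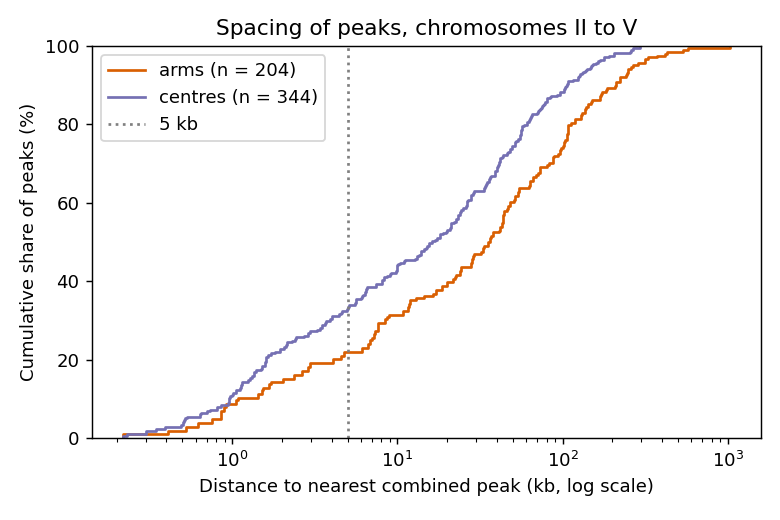
Cumulative share of peaks (y axis, %) by distance to the nearest combined peak in kb (x axis, log scale) for the 204 arm and 344 centre peaks of II to V; the dotted line marks 5 kb. The arm curve lies to the right over most of its range, with medians of 35.9 and 16.1 kb.

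Some arm peaks of the replicate lists were missing from the combined list. Of 132 replicate 1 arm peaks, 88 overlapped a combined peak (66.7%, exact 95% interval 57.9 to 74.6), as did 20 of 26 in replicate 2 (76.9%, 56.4 to 91.03). In centres the shares were 72.6% (66.4 to 78.3) and 84.8% (71.1 to 93.7). The arm and centre intervals overlap, no test was made, and these shares are no result about arms. Shares over the whole replicate lists are not given here. The 44 replicate 1 arm peaks without a combined partner had a median width of 26 bp, and 30 were under 50 bp. Centres were similar, with 63 such replicate 1 peaks, a median width of 24 bp and 46 under 50 bp. Among the 44 in arms, the one with the lowest q, II 4406971 to 4406983, was 13 bp wide with a q of 1.68e-05. The nearest combined peak to it was 30024 bp away. None of the 44 was in replicate 2, and none of the 6 replicate 2 peaks without a combined partner was in replicate 1. The lowest q among those 6 was that of III 10819934 to 10820023, in the widest gap described above.

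The 8 combined peaks just inside the limits lay 20.6 to 606 kb from them, with widths of 13 to 234 bp and q-values of 1.02e-07 to 0.00931. The 8 just outside lay 42.6 to 1013 kb away, with widths of 15 to 481 bp and q-values of 2.14e-09 to 0.00921. In each set 4 were in replicate 1 and 0 in replicate 2. The whole combined list had shares of 39.8% and 7.81% in the same order. With only 8 peaks in a set, these counts are no result about the limits. The nearest to a limit were IV 3875331 to 3875517 inside and II 11977404 to 11977457 outside.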

How the data were processed

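Peak lists of 2 ChIP libraries and a combined list were used; per the labels' protocols, input DNA was kept from the same extracts, and the 2 input libraries were not analysed here. The build is WormBase WS220, per the file headers, and the lists name PeakSeq as the caller. The q-value of each peak is the authors' deposited value, used only within its list. The aligner, threshold, use of input and making of the combined list were not given in the sources used here. Depth is therefore unknown. Whether replicates were separate cultures is not in the labels, and their differences may be technical.

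Peaks were placed by midpoint. Peaks were called shared at an overlap of at least 1 bp. Densities carry exact Poisson intervals and shares exact Clopper-Pearson intervals at 95%, which cover counting error only. Arm counts were compared with the arms' share of the span by two-sided exact binomial tests with Benjamini-Hochberg adjustment. The units of these tests are peaks, not libraries. The chromosome end was taken as the farthest listed peak end in any list. Named peaks are the 3 of lowest q in each arm, the lowest-q peaks absent from other lists and those at the arm limits. Others are marked, or were named for the gap or run that holds them, without a rule set beforehand. The members and rules were chosen with earlier results of these data known. Alternatives were runs counted once, a q of at most 0.001, peaks of 50 bp or more, other overlap rules, moved limits, and chromosomes or replicates left out. Computations, tested on simulated peaks, used Python 3.11.15, numpy 2.4.6, pandas 2.3.3, scipy 1.17.1 and matplotlib 3.10.9.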

Additional observations from a re-analysis of the deposited data

How the results depend on the processing

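Among 65 alternative values, 44 had the same direction and call or moved within the error, 18 moved further and 3 changed direction. The error was the exact 95% interval for shares, and for medians the standard deviation of the medians of the 2 replicate lists. For medians it thus rests on 2 values, wide for width and narrow for q, so these counts do not measure robustness. The arm share of peaks stayed below the share of the span in all 13 alternatives, at 32.8% to 40.5%; 2 of these, runs counted once in each replicate list, were chosen after seeing the data. The left-arm share of arm peaks, 57.8% on 54.6% of the arm span, fell below its span share without chromosome V (52.8% against 53.3%) and in single replicate lists (42.3% to 51.5%), and passed the threshold in none. With a q of at most 0.001, the shares of arm peaks were 62.1% in replicate 1, 18.4% in replicate 2, 16.5% in both, 35.9% in neither and 15.5% with a neighbour under 5 kb, and the median q was 2.03e-04; that setting removes weak peaks by construction. With 50% overlap of both peaks, 34.3% were in replicate 1 and 65.7% in neither. At 50 bp or more the shares were 53.2% and 45.5%, and the median q was 8.74e-04. The median q was 0.00107 without III and 0.00108 without V. Single replicate lists had median q-values of 0.00267 to 0.00277 and median widths of 126.5 to 303.5 bp. A neighbour within 2 kb was present for 14.2% and within 10 kb for 31.4%. The cause of the other changes was not tested.

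No paired analysis was possible because no peak list of the input libraries was used here. Depth is unknown, so counts of peaks in the replicate lists cannot be set against it.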
